A study of Mus musculus with 6 samples.

Results

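Basal keratinocytes of mouse dorsal skin were compared between 6 d and 4 d post depilation. The cells were chosen by a gate on their own counts of unique molecular identifiers (UMIs, each standing for 1 captured transcript). A barcode entered when it had 500 to 7000 detected genes, at most 10% of its UMIs from mitochondrial (mt-) genes, at least 100 UMIs of Krt5 and Krt14 together per 10000, and under 100 UMIs of Krt1 and Krt10 together per 10000. At 4 d 5019 of 13878 barcodes met these limits, and at 6 d 4288 of 10761 did, which gives 9307 cells of the 24639 barcodes in both libraries and of 61031 in the series. The cells were then split into those with at least 1 UMI of Lhx2, Lgr5 or Sfrp1 (marked cells, 2072 at 4 d and 1856 at 6 d) and those with none (unmarked cells, 2947 and 2432). The series holds 6 single-cell RNA-seq libraries, 1 for each time point from 0 h to 6 d. Both libraries compared here came from wildtype males on the FVB background, aged p55 to p57, whose back skin had been shaved and waxed. Skin of 2 mice per time point was dissociated mouse by mouse and pooled in equal cell numbers, so values of single mice cannot be given. Each time point is therefore 1 library, no test between time points was possible, and age, preparation and time post depilation cannot be separated. Values are given as CPM (the UMIs of a gene per 1000000 UMIs summed over the cells) and as the ratio of the 6 d CPM to the 4 d CPM with its exact 95% interval in brackets, which covers counting error only.

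Basal keratinocytes are the KRT5 and KRT14 positive cells that sit on the basement membrane of the interfollicular epidermis, the upper hair follicle and the outer root sheath. They divide, and their daughters lose KRT5 and KRT14 and take up KRT1 and KRT10 in the epidermis or enter the lineages of the hair follicle. Plucking or waxing the hair shaft from a resting (telogen) follicle brings the bulge stem cells and the hair germ into growth (anagen) within days. LHX2 and LGR5 mark stem and progenitor cells of the bulge and lower follicle, and SFRP1 is a secreted Wnt inhibitor of the same cells. The split by these genes is thus meant to favour bulge and lower follicle cells on the marked side. Upper follicle genes summed to more on the unmarked side, at 25393 against 17738 CPM at 4 d and 16235 against 15328 at 6 d.

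The summed counts were of like depth, with 34959090 UMIs at 4 d and 33190045 at 6 d, and the median cell had 6188 and 6900.5 UMIs. The gate did not cut between separate clusters of cells. At 4 d 820 cells lay just inside the Krt5 and Krt14 limit (100 to 120 per 10000) and 1038 barcodes just outside it (80 to 100), and at 6 d these were 640 and 811. Near the Krt1 and Krt10 limit, 35 cells at 4 d and 63 at 6 d lay just inside and 25 and 48 just outside. Of the basal markers that the gate did not use (Itga6, Itgb4, Itgb1, Trp63, Col17a1, Dst and Lamb3), 7 of 7 passed the filter on low values and 0 were past 1.5-fold. Together these markers made up 2459 CPM in the 4 d cells and 2419 CPM in the 6 d cells. The share of marked cells, which the rule sets, was 41.28% (39.92 to 42.66, Clopper-Pearson) at 4 d and 43.28% (41.79 to 44.78) at 6 d, and with every cell thinned to 2000 UMIs it was 24.92% and 26.07%.

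RNA of other cell types was present in the gated cells and differed between the libraries. Markers of 4 or 5 genes per cell type were summed. T cell markers summed to 88.53 CPM at 4 d against 24.74 at 6 d, melanocyte markers 92.14 and 8.376, fibroblast and dermal papilla markers 40.76 and 3.435 (Lum and Pdgfra were at 0 at 6 d), and Langerhans cell markers 84.38 and 154. Endothelial and red cell markers were under 2 CPM at both time points. For comparison, barcodes with at least 2 UMIs of Cd3e, Cd3d, Cd3g and Trdc and under 100 UMIs of Krt5 and Krt14 per 10000 were summed too. These T cell barcodes numbered 877 at 4 d and 321 at 6 d, with a median of 2473 and 2634 UMIs. Of these, 11.86% at 4 d and 8.723% at 6 d held a UMI of Lhx2, Lgr5 or Sfrp1. Thinned to 2000 UMIs, the shares were 9.548% and 5.364%, against 24.92% and 26.07% of basal keratinocytes. At 4 d DNA replication and S phase genes summed to 2627 CPM in T cell barcodes and 1189 in basal keratinocytes. Anagen outer root sheath genes summed to 3483 and 2531 CPM, and upper follicle genes to 11005 and 21949. T cell barcodes are therefore not a measure of shared RNA alone, and the source of a call made in both was not tested. The 2 libraries shared 29 barcode sequences.

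Over all basal keratinocytes, 7751 genes had a mean of at least 10 CPM over the 2 sums. A gene is called past the fold when its ratio was at least 1.5 or at most its inverse, with a 95% interval that does not hold 1. By this measure 342 genes (4.41%) were higher and 306 (3.95%) lower at 6 d. In marked cells 343 (4.31%) were higher and 458 (5.75%) lower of 7964 genes, and in unmarked cells 353 (4.68%) were higher and 361 (4.78%) lower of 7545. These shares are the background for the counts below. The median log2 ratio of all genes was -0.15 and 69.2% of ratios were under 1. Scaled with TMM, which sets that median to -0.002, 532 genes were higher and 117 lower in all basal keratinocytes, 509 and 204 in marked cells, and 565 and 151 in unmarked cells, so list medians are to be read beside -0.15, and the count of lower genes under TMM is given where it differs for a list described below. The T cell barcodes of the same libraries had 12.2% of 8324 genes higher and 25.6% lower, and 182 of the 342 higher and 173 of the 306 lower genes had the same call there. Between marked and unmarked cells, 235 genes were higher in both (68.5% of the marked and 66.6% of the unmarked calls) and 130 were lower in both (28.4% and 36%). No gene was past the fold in opposite directions.

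Among the genes with the largest ratios in both marked and unmarked cells were cornified envelope genes, which granular keratinocytes of the upper epidermis express. Lor, the main cornified envelope protein loricrin, had 14.47 CPM at 4 d and 200.1 at 6 d, a ratio of 13.8 (12.6 to 15.2). Lce1m and Crct1, which lie with Lor in the epidermal differentiation complex, had ratios of 11.5 (9.26 to 14.3) and 5.61 (5.07 to 6.22). The same genes were higher in T cell barcodes. No Krt1 and Krt10 limit was set for these barcodes, and their spinous markers summed to 2281 CPM at 4 d and 9217 at 6 d. After thinning, Lor had a UMI in 2.49% of basal keratinocytes at 4 d and 25.6% at 6 d, and in 3.18% and 45.6% of T cell barcodes, whose CPM of Lor was 19.94 and 3165. Crct1 was found in 1.06% and 9.39% of basal keratinocytes against 0.67% and 23.4% of T cell barcodes, and Krtdap in 18.7% and 37.4% against 11.6% and 43.3%. At 6 d these shares lay below those of the T cell barcodes, and at 4 d those of Crct1 and Krtdap lay above. The source of these UMIs in basal keratinocytes was not tested. Of 12 spinous and granular genes tested, 6 were higher and 0 lower in basal keratinocytes (median log2 ratio 0.51), and 11 of 13 were higher in T cell barcodes. Of the 5 granular markers 4 were tested and 3 higher, and their sum was 47.06 CPM at 4 d and 270.1 at 6 d in basal keratinocytes against 58.05 and 3601 in T cell barcodes. Keratinocytes above the Krt1 and Krt10 limit numbered 506 at 4 d and 1402 at 6 d.

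Krt16, a keratin of the outer root sheath and of wounded or hyperproliferative epidermis, was higher to the same degree on both sides of the split. It had 146.2 CPM at 4 d and 896.1 at 6 d (ratio 6.13, 5.95 to 6.32), with 6.09 in marked and 6.08 in unmarked cells. A UMI of Krt16 was found in 10.3% of cells at 4 d and 29.2% at 6 d after thinning, and in 1.17% and 6.9% of T cell barcodes. Its partner Krt6a went from 75.09 to 169.6 CPM (2.26, 2.16 to 2.37), with a ratio of 9.87 in T cell barcodes. Krt17, the remaining wound keratin tested, had a ratio of 0.814 (0.806 to 0.821). Cstdc5, a stefin A type cysteine protease inhibitor, had 41.68 and 221.7 CPM (5.32, 5.03 to 5.63). Pinlyp, a companion layer gene, had a ratio of 3.47 (3.3 to 3.66), with 73.4% of its UMIs at 4 d and 78.2% at 6 d in 20 cells. Of 10 companion layer genes tested 3 were higher (Krt16, Krt6a and Pinlyp) and 2 lower (1 with TMM), with a median log2 ratio of -0.02. The 3 higher genes were past the fold in T cell barcodes too. The basal keratin Krt14, which the gate used, had a ratio of 0.926.

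Several signalling genes were among the 12 highest by the interval bound nearest 1. F3, tissue factor, the receptor that starts coagulation, had 5.95 and 46.97 CPM (7.9, 6.83 to 9.17). Pde4b, a cAMP phosphodiesterase whose transcription rises with cAMP, had 19.05 and 127.4 CPM (6.69, 6.16 to 7.27), with 6.31 in marked, 6.92 in unmarked cells and 4.51 in T cell barcodes. Gadd45b, a stress sensor that binds MAP kinase kinases, had 126.5 and 709.9 CPM (5.61, 5.43 to 5.79), with 5.71 in marked and 5.53 in unmarked cells. A UMI of Gadd45b was found in 17.1% of cells at 4 d and 55.9% at 6 d after thinning, and in 39.5% and 50.6% of T cell barcodes, in which the ratio was 1.76.

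**Figure D1:**
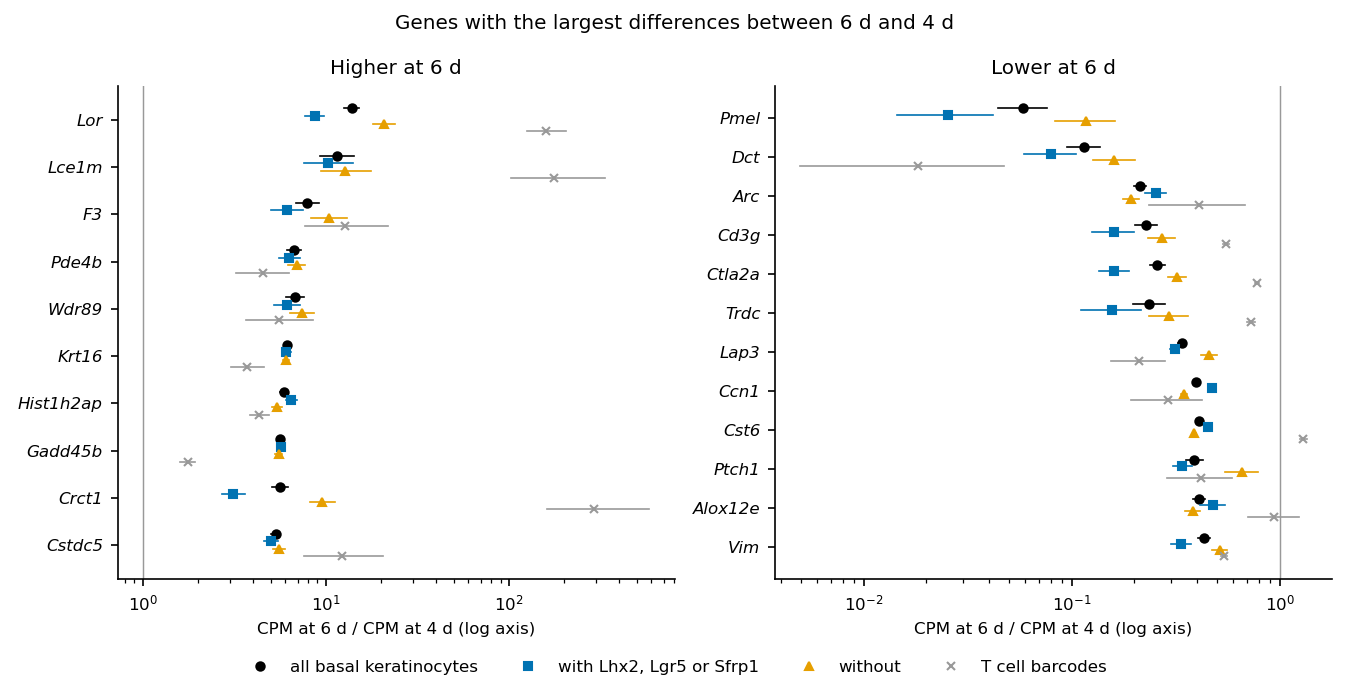
Ratio of the 6 d CPM to the 4 d CPM (log axis) with 95% counting intervals for 10 of the 12 genes higher and for the 12 lower at 6 d that were named by size, in all basal keratinocytes, marked cells, unmarked cells and T cell barcodes (no point where a group had no UMI at 4 d or at 6 d). Lor, Lce1m and Crct1 had far larger ratios in T cell barcodes than in basal keratinocytes, Wdr89 had like ratios in all, and Cst6 had a ratio above 1 in T cell barcodes.

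A set of genes was higher to nearly the same degree in basal keratinocytes and in T cell barcodes. Of 83 cytosolic ribosomal protein genes tested 15 were higher and 0 lower, and these 15 were higher in marked cells, in unmarked cells and in T cell barcodes. The background was 4.41% of genes higher. The ratios of 14 of the 15 ran from 1.55 (Rps28) to 2.06 (Rps21). These 14 together had 26764 CPM in the 4 d cells and 46210 in the 6 d cells (1.73), against 1.8 in T cell barcodes, and their sum lay between 23478 and 30611 at the other time points. The 71 ribosomal protein genes not past the fold had a summed ratio of 1.07, and 1.1 in T cell barcodes. Wdr89 (6.77, 6.07 to 7.57), the histone transcript Hist1h2ap (5.89, 5.62 to 6.18), the gene model Gm10076 (4.57, 4.5 to 4.64) and mt-Nd4l, a subunit of respiratory complex I (1.96, 1.93 to 2), had ratios of 5.56, 4.33, 4.76 and 1.81 in T cell barcodes. Ribosomal protein genes and histones have near-identical copies or pseudogenes, so the assignment of their reads is uncertain. The part of library preparation in these values was not tested.

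Genes of other cell types were among those with low ratios. Pmel and Dct, which melanocytes use to make pigment, had ratios of 0.0586 (0.0443 to 0.0762) and 0.114 (0.0954 to 0.136), and at 4 d 91.3% and 86.7% of their UMIs were in 20 cells. Cd3g and Trdc, parts of the T cell receptor complex, had 0.228 (0.202 to 0.257) and 0.237 (0.198 to 0.282), and Ctla2a 0.258 (0.237 to 0.281). The intermediate filament gene Vim of mesenchymal and immune cells went from 83.64 to 36.19 CPM (0.433, 0.404 to 0.463), and it had a UMI in 96.5% of T cell barcodes at 4 d. Col1a1 and Col1a2, collagens of fibroblasts, were lower past the fold among the genes tested in unmarked cells, where Col1a1 had a ratio of 0.0226. At 4 d 94.1% of the Col1a1 UMIs in all basal keratinocytes were in 20 cells. The Langerhans cell genes went the other way, with Cd74 at 45.2 and 76.14 CPM (1.69, 1.58 to 1.8), and 75.7% and 81.9% of its UMIs in 20 cells. When cells with 2 or more UMIs of these markers were left out (7.133% of cells at 4 d and 6.74% at 6 d), 334 genes were higher and 307 lower.

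Some genes of the upper follicle and of the anagen outer root sheath were lower at 6 d. Cst6, cystatin M/E, a protease inhibitor of follicular and cornifying epithelium, went from 3975 to 1637 CPM (0.412, 0.408 to 0.416), with 0.455 in marked cells, 0.39 in unmarked cells and 1.3 in T cell barcodes. It had a UMI in 30.9% of basal keratinocytes at 4 d and 29.7% at 6 d after thinning, and in 36.3% and 40.6% of T cell barcodes. Of the Cst6 UMIs in basal keratinocytes, 29.2% at 4 d and 47.7% at 6 d lay in 20 cells. Their source was not tested. Krt79, a keratin of the upper follicle opening, went from 1661 to 881 CPM (0.53, 0.523 to 0.538), and Lrig1, a negative regulator of ERBB receptors in upper follicle stem cells, from 68.82 to 40.74 (0.592, 0.553 to 0.633). Plet1, another upper follicle gene, was higher, at 89.68 and 188.5 CPM (2.1, 2.01 to 2.2), and was higher past the fold in T cell barcodes too. Of 13 upper follicle genes tested, 1 was higher and 3 lower in all basal keratinocytes (median log2 ratio -0.30), and 5 of 13 were lower in unmarked cells. With TMM the counts of lower genes were 3 and 4.

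Of 9 anagen outer root sheath genes tested, 5 were lower and 0 higher (median log2 ratio -0.68), and 4 were lower with TMM. Lap3, a leucine aminopeptidase, went from 238.8 to 80.72 CPM (0.338, 0.324 to 0.353), and was found in 24.2% of cells at 4 d and 12.2% at 6 d. Its ratio was 0.313 in marked cells, 0.458 in unmarked cells and 0.211 in T cell barcodes. Ptch1, the Hedgehog receptor and a direct target of the pathway, went from 90.84 to 31 CPM in marked cells (0.341) and from 15.55 to 10.23 in unmarked cells (0.658). The ratio of these ratios was 0.519 (0.421 to 0.64), so the difference between 4 d and 6 d was larger in the marked cells by more than counting error. Over all basal keratinocytes a UMI of Ptch1 was found in 7.86% of cells at 4 d and 3.74% at 6 d after thinning, not above the 8.71% and 6.13% of T cell barcodes, and 8 of 9 genes of the list were lower in T cell barcodes. Basp1, a membrane-bound signalling protein, had 51.87 and 16.3 CPM in marked cells and 6.137 and 5.594 in unmarked cells (ratio of ratios 0.345, 0.255 to 0.466). Gli1, the other direct Hedgehog target listed, went from 23.01 to 12.35 CPM in marked cells (0.536). Among the 5 tested Hedgehog genes, Ptch1 was past the fold and the signal transducer Smo had a ratio of 0.725 (0.678 to 0.776). Sox9, a transcription factor of the outer root sheath, had 1.06 (1.03 to 1.1), and the bulge keratin Krt15 0.847 (0.841 to 0.853). Of the genes that define the split, Lhx2 had 82.87 and 61.52 CPM (0.742), Lgr5 28.98 and 29.38 (1.01) and Sfrp1 153.6 and 200.6 (1.31).

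The DNA replication and S phase genes were the list with the most members past the fold in 1 direction among marked cells. Of 25 tested there, 17 were lower and 0 higher (median log2 ratio -0.64), against 1 of 24 in unmarked cells (-0.28) and 6 of 24 in all basal keratinocytes. With TMM these counts of lower genes were 8, 0 and 1. E2F transcription factors switch on most of these genes as a cell commits to divide. Promoters of 4 of the lower genes are printed to show the letters of an E2F element, TTTGGCGC or TTTCCCGC on either strand, which stand in capitals (read on the other strand as GCGCCAAA or GCGGGAAA). Each runs from 250 bases before to 50 bases after the transcription start in RefSeq (GRCm38.p6), written 5′ to 3′ on the strand of the gene.
Pclaf, chr9:65890073-65890372 (+): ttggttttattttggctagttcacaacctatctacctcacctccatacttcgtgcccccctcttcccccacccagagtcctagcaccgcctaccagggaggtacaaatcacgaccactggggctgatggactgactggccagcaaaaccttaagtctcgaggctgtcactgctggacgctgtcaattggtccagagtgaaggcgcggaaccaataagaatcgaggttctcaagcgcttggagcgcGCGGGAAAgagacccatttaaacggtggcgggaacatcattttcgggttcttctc
Mcm7, chr5:138171834-138172133 (-): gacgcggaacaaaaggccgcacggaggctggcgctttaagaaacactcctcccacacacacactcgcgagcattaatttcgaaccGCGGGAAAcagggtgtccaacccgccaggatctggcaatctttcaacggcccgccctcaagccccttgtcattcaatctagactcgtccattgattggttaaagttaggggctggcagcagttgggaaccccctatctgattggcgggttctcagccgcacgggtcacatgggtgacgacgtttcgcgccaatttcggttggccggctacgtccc
Mcm6, chr1:128359656-128359955 (-): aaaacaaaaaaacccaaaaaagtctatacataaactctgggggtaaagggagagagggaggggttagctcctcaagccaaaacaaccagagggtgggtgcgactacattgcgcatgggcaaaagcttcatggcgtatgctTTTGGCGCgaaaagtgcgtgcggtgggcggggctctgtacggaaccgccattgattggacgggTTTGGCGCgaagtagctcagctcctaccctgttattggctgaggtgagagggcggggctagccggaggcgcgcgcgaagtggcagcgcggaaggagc
Mcm5, chr8:75109259-75109558 (+): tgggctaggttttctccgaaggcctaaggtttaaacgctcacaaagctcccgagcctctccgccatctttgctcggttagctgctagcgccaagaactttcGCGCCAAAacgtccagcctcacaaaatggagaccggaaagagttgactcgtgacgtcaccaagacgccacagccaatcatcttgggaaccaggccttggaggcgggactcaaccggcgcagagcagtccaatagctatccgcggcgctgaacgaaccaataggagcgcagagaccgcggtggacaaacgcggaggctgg
The letters began 5 bases before the start in Pclaf, 165 in Mcm7, 110 and 47 in Mcm6 and 149 in Mcm5. They were found in 5 of the 16 lower genes with a promoter in the table (31.2%), in 8 of the 25 list members with one (32%) and in 441 of 27025 promoters of all genes (1.63%). The cell cycle homology element TTTGAA, which shares its opening 4 letters with 1 of these, was sought on both strands and found in 2 of the 16 (12.5%) and in 18.1% of all promoters.

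Of the 6 subunits of the replicative helicase (Mcm2 to Mcm7) 5 were lower past the fold in marked cells and 0 in unmarked cells. Mcm2 had 29.24 CPM at 4 d and 13.25 at 6 d in marked cells (0.453, 0.381 to 0.537) and 17.42 and 14.38 in unmarked cells (0.826, 0.701 to 0.972). Mcm6 had 49.08 and 24.76 CPM (0.505, 0.444 to 0.573) against 32.87 and 23.92 (0.728, 0.643 to 0.823). Pcna, Mcm3 and Fen1 lay just inside the limit in marked cells. Mcm5 had 0.533 and 0.823, Mcm7 0.634 and 0.799, Mcm3 0.665 and 1 (0.875 to 1.14), and Mcm4, which was not past the fold, 0.726 and 0.9. Chaf1b, a subunit of the histone chaperone that loads new DNA, had the lowest ratio of the list in marked cells, at 0.387 (0.318 to 0.469), with 0.839 in unmarked cells. The DNA clamp Pcna had 142.6 and 94.32 CPM in marked cells (0.662, 0.618 to 0.708) and 115.9 and 91.25 in unmarked cells (0.787, 0.739 to 0.839). Pclaf, which binds the clamp, had 0.608 and 0.763. The marked ratio was below the unmarked ratio for 23 of 24 genes tested in both, Fen1 being the exception (0.666 and 0.664). Summed over the list, marked cells went from 1398 to 902.3 CPM (0.645, 0.631 to 0.659) and unmarked cells from 1018 to 846.4 (0.832, 0.814 to 0.849), with a ratio of ratios of 0.776 (0.753 to 0.8). At 6 d the marked and unmarked sums were closer to each other than at 4 d. Melanocyte markers in marked cells summed to 124.5 CPM at 4 d and 6.173 at 6 d, and basal markers to 2447 and 2509. Whether marked cells held the same mix of cells at both time points was not tested.

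**Figure D2:**
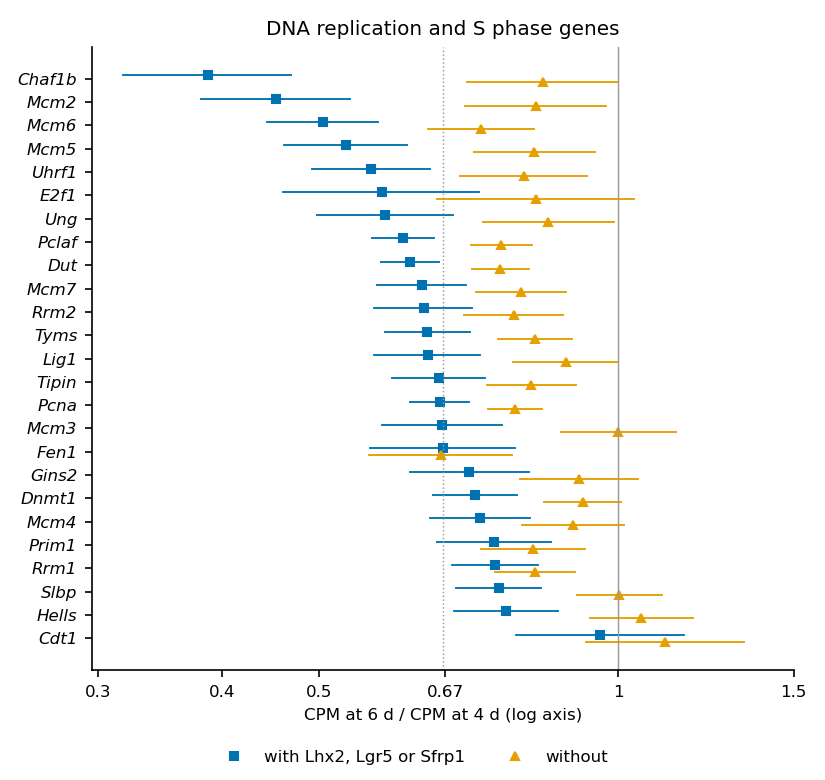
Ratio of the 6 d CPM to the 4 d CPM (log axis) with 95% counting intervals for the 25 DNA replication and S phase genes tested in marked cells, shown for marked and unmarked cells (E2f1 was below 10 CPM in the unmarked cells); the dotted line is the inverse of 1.5. The marked values run from 0.387 for Chaf1b to 0.958 for Cdt1 and lie left of the unmarked values for all genes drawn but Fen1.

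The count of S phase genes moved with the cells chosen. In marked cells it was 8 of 25 with TMM and 8 of 25 without the cells of highest doublet score. With at least 200 UMIs of Krt5 and Krt14 per 10000 it was 3 of 24, and with at least 2 UMIs of Lhx2, Lgr5 or Sfrp1 for a marked cell 22 of 25. The list was also lower in T cell barcodes, with 25 of 27 genes past the fold and sums of 2627 and 1088 CPM. Cycling cells were counted as those with at least 2 UMIs of 10 cycle markers after thinning to 2000 UMIs. They were 28.87% (27.6 to 30.16) of cells at 4 d and 26.94% (25.61 to 28.3) at 6 d, with intervals that overlap. In marked cells the shares were 31.67% (29.65 to 33.75) and 27.11% (25.09 to 29.2), and in unmarked cells 26.88% and 26.81%. These intervals cover counting error over the cells of 1 library each, so whether they overlap is no test between time points. Without thinning, the share over all basal keratinocytes was lower at 4 d (55.89%) than at 6 d (62.13%), so the order of the shares changed with thinning. The shares of marked and unmarked cells were counted after thinning only. Of 30 G2 and mitosis genes tested, 4 were lower and 0 higher (median log2 ratio -0.42), and 2 with TMM, while in T cell barcodes 27 were lower and 1 higher (-1.50). Cdk1, the mitotic kinase, had 86.87 and 49.65 CPM (0.572, 0.538 to 0.607), and Aurkb, the kinase of the chromosomal passenger complex, 29.92 and 17.44 (0.583, 0.526 to 0.646). Of 16 DNA mismatch repair genes 3 were lower, among them Rpa3 (0.527, 0.485 to 0.573) of the single-strand binding complex, against 2 with TMM and 15 of 17 in T cell barcodes. Of 9 replication dependent histones tested 2 were higher, among them Hist1h2ap, and 1 lower. The list summed to 656 CPM at 4 d and 906.1 at 6 d, with ratios of 1.56 in marked and 1.25 in unmarked cells. Its median log2 ratio went the other way, at -0.42 in all basal keratinocytes, -0.21 in marked and -0.56 in unmarked cells. The rise of the sum is therefore not shared by most members. The lower gene in all basal keratinocytes was Hist1h1b, a linker histone made in S phase, with a ratio of 0.618 (0.593 to 0.643), a call not made with TMM.

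Some genes were higher in marked cells while their level in unmarked cells lay at or below that of 4 d. Ier3, an immediate early gene that modulates apoptosis, went from 325.2 to 516.1 CPM in marked cells (1.59) and from 460.4 to 383 in unmarked cells (0.832), a ratio of ratios of 1.91 (1.82 to 2). Phlda1, a marker of bulge and intestinal stem cells, went from 118.5 to 206.1 in marked and from 67.97 to 60.25 in unmarked cells (1.96, 1.78 to 2.17). Prlr, the prolactin receptor, had 37.57 and 59.3 CPM in marked and 48.94 and 39.05 in unmarked cells (1.98, 1.72 to 2.28). For the chemokine Ccl2 the ratio of ratios was 2.33 (1.82 to 2.97), with 42.4% of its UMIs at 4 d in 20 cells. Dapk2, a calmodulin-dependent death kinase, stayed at 29.69 and 27.95 CPM in marked cells and had 39.73 and 16.09 in unmarked cells. In the opposite sense, Flg, the granular layer protein filaggrin, had 23.27 and 24.69 CPM in marked cells and 0.9881 and 49.92 in unmarked cells, and 95.3% of its UMIs at 4 d and 75.7% at 6 d lay in 20 cells. The Langerhans cell genes Cd74, H2-Aa and H2-Ab1 had ratios of 3.16, 4.77 and 2.58 in unmarked cells and 0.723, 1.24 and 0.812 in marked cells, with the Langerhans cell marker sum at 60.07 and 197.4 CPM in unmarked cells. The part of these other cells in the ratios was not tested.

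Immediate early genes, which cells transcribe within minutes of a stimulus or of tissue dissociation, were lower mainly in unmarked cells. All 24 of the list were tested, and 9 were lower and 3 higher in all basal keratinocytes (median log2 ratio -0.32). In unmarked cells 10 were lower and 1 higher, and in marked cells 3 were lower and 4 higher. With TMM the lower counts were 3, 9 and 1. Egr1 had 1172 and 933.9 CPM in marked cells and 1285 and 685.4 in unmarked cells (ratio of ratios 1.49, 1.45 to 1.54), and Junb 2375 and 1731 against 2836 and 1599 (1.29, 1.27 to 1.32). Btg2, an antiproliferative P53 target, had ratios of 0.84 and 0.505 (1.66, 1.62 to 1.71). Ier2 was lower on both sides, at 0.636 and 0.486. The highest member was Ier5, at 49 and 125 CPM (2.55, 2.41 to 2.7), followed by Myc (1.58, 1.51 to 1.65) and Maff (1.58, 1.44 to 1.73). Fos and Jun, the subunits of AP-1, had 0.812 (0.805 to 0.819) and 1 (0.995 to 1.02). In T cell barcodes 4 of the 24 were higher and 2 lower. Arc, an activity-induced gene outside the list, went from 140.4 to 30.01 CPM (0.214, 0.199 to 0.229), with 0.411 in T cell barcodes, and Alox12e, an epidermal lipoxygenase, from 80.32 to 32.9 (0.41, 0.382 to 0.439).

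BMP signalling holds bulge stem cells at rest. The list holds ligands, receptors, targets and inhibitors of the pathway, so its counts do not give a direction of signalling. Of 19 tested 5 were higher and 0 lower (median log2 ratio 0.16), with 4 of 19 higher in marked cells and 2 of 17 in unmarked cells. Among ligands, Bmp2 went from 23.63 to 57.67 CPM (2.44, 2.25 to 2.65), with 2.21 in marked and 2.58 in unmarked cells, while Bmp4 had a ratio of 0.738 (0.678 to 0.803) and Bmp7 0.82 (0.751 to 0.896). The receptors Bmpr1a and Bmpr2 had 0.881 and 1.15, and the pseudoreceptor Bambi 1.75 (1.5 to 2.03). Of the target genes, Id3 went from 334.4 to 612.7 CPM (1.83, 1.79 to 1.87) and Id2 from 42.74 to 64.6 (1.51, 1.41 to 1.62), while Id1 had 0.872 (0.852 to 0.893). Smad7, the inhibitory SMAD, had 22.37 and 36.43 CPM (1.63, 1.49 to 1.78), and the antagonist Fst 1.4 (1.35 to 1.46). In T cell barcodes, where 2 of 14 genes of the list were higher, Id3 had a ratio of 1.15 and Bmp2 2.56.

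ERBB receptors and their ligands drive keratinocyte growth. Of 11 genes tested 2 were higher and 1 lower. The ligands Nrg1, at 10.13 and 40.67 CPM (4.02, 3.57 to 4.53), and Tgfa, at 8.581 and 20.49 (2.39, 2.08 to 2.74), were higher, Areg and Hbegf had ratios of 0.742 and 0.754, and the inhibitor Lrig1 was the lower gene. The receptors Egfr, Erbb2 and Erbb3 had 1.09, 0.847 and 1.01. Nrg1 was higher by 5.18 in marked and 3.4 in unmarked cells (ratio of ratios 1.52, 1.19 to 1.94), and the ratios of Nrg1 and Tgfa in T cell barcodes were 3.84 and 1.92. Of 24 Wnt genes tested the ligand Wnt16 was higher, at 16.71 and 30.79 CPM (1.84, 1.66 to 2.04), and the ligand Wnt7b lower, at 46.57 and 30.94 (0.665, 0.614 to 0.719), a call not made with TMM. Wnt4 and Wnt10a had ratios of 0.935 and 0.832, and the target Axin2 0.871. In the Notch pathway the target Hes1 went from 253.8 to 506.8 CPM (2, 1.95 to 2.05) and was the member past the fold of 11 tested, with 2.03 in marked cells, 1.98 in unmarked cells and 1.56 in T cell barcodes, where it was past the fold too. The ligand Dll1 had 1.45 (1.31 to 1.6) and the receptor Notch1 1.27 (1.21 to 1.32). Of 19 TGF-beta and activin genes Ccn1, a matricellular protein, was lower, from 659.6 to 260.6 CPM (0.395, 0.385 to 0.405), while Ccn2 had 1.05 (0.951 to 1.17). None of the 8 tested Fgf pathway genes was past the fold, and the receptor Fgfr2 had 1.05 (1 to 1.1).

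Stress and defence genes were higher in small groups. All 3 metallothioneins tested were higher (median log2 ratio 1.07). Mt1 went from 1574 to 3311 CPM (2.1, 2.08 to 2.13) and Mt2 from 616.6 to 1431 (2.32, 2.28 to 2.36), with 2.3 and 1.79 in T cell barcodes. Of 22 heat shock and folding chaperones 6 were higher and 0 lower (0.21), among them the small heat shock protein Hspb1, at 1136 and 2229 CPM (1.96, 1.94 to 1.99), and the endoplasmic reticulum chaperone Hspa5 (1.58, 1.54 to 1.62), with ratios of 3.02 and 2.32 in T cell barcodes. In marked cells 7 of 22 chaperones were higher, in unmarked cells 3 of 21, and in T cell barcodes 5 of 22 were higher and 3 lower. Of 9 interferon stimulated genes 5 were higher and 0 lower (0.63), with 7 of 10 in marked and 4 of 9 in unmarked cells. Ifi27l2a went from 59.56 to 252.5 CPM (4.24, 4.04 to 4.45), the transcription factor Irf1 from 64.93 to 180.1 (2.77, 2.64 to 2.91) and the ubiquitin-like Isg15 from 12.16 to 43.69 (3.59, 3.22 to 4.01). Ifi27l2a (7.84) and Isg15 (3.94) were higher in T cell barcodes too, where for Isg15 12.6% and 34.9% of barcodes held a UMI against 1.74% and 5.67% of basal keratinocytes, and 5 of the 12 interferon genes tested there were higher and 4 lower. Of 11 circadian clock genes 2 were higher, the repressors Nr1d1 (3.2, 2.95 to 3.48) and Nfil3 (2.43, 2.27 to 2.61). In T cell barcodes 6 of 14 were higher and 0 lower, with Nr1d1 at 3.77 and Nfil3 at 1.94, and the hour of collection of each library was not given in the sources used here. Klf9, which glucocorticoids induce, had 132.4 and 213 CPM (1.61, 1.55 to 1.67). Sesn2, an ATF4 and P53 target, had 8.381 and 24.01 (2.87, 2.5 to 3.29).

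**Figure D3:**
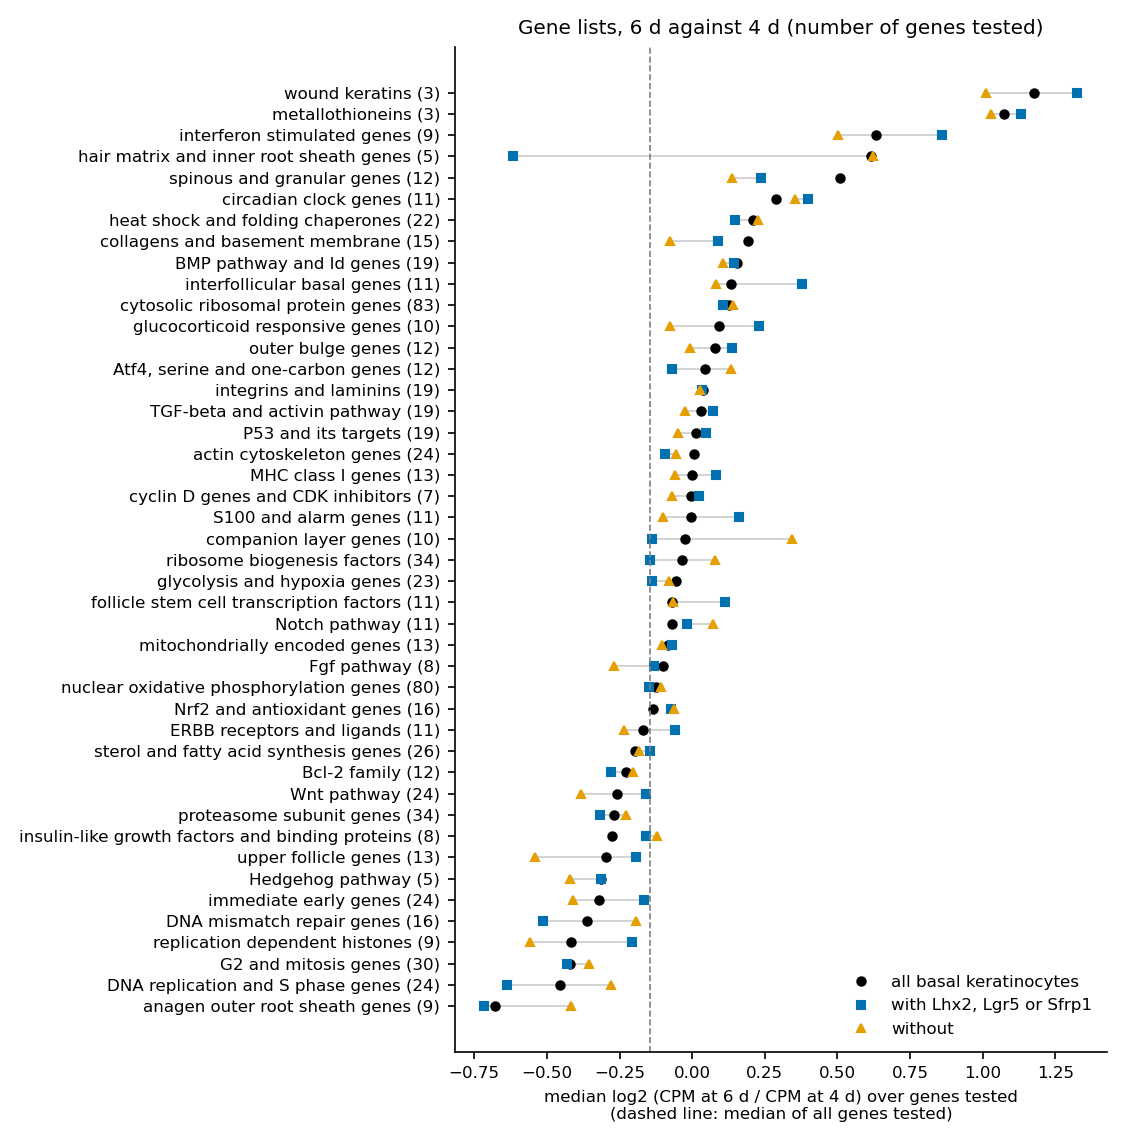
Median log2 ratio of the 6 d CPM to the 4 d CPM over the genes tested of each list, in all basal keratinocytes, marked and unmarked cells; the number in brackets is the genes tested in all basal keratinocytes and the dashed line is the median of all genes (-0.15). The wound keratins, metallothioneins and interferon stimulated genes are at the top, and the anagen outer root sheath, S phase and G2 and mitosis genes at the bottom.

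Metabolic and structural lists had few or no members past the fold. In glycolysis and hypoxia 3 of 23 were higher and 1 lower, with Ndrg1 (2.33, 2.21 to 2.46), Hk2, the entry enzyme of glycolysis (1.73, 1.6 to 1.87), and Vegfa (1.61, 1.46 to 1.76) higher and Ldhb (0.496, 0.462 to 0.532) lower. These 4 had the same calls in T cell barcodes, with ratios of 4.22, 2.39, 3.6 and 0.266. None of 80 nuclear oxidative phosphorylation genes (median log2 ratio -0.13), 34 proteasome subunits (-0.27), 16 Nrf2 and antioxidant genes (-0.14) or 24 actin cytoskeleton genes (0.01) was past the fold in all basal keratinocytes. With TMM 3, 0, 1 and 0 of them were higher. Of 19 integrins and laminins Itgb5 was lower (0.578, 0.517 to 0.647), and of 15 collagen and basement membrane genes Tnc (1.56, 1.4 to 1.73) and Col12a1 (1.62, 1.49 to 1.76) were higher and 3 lower (1 with TMM). Of 12 Bcl-2 family genes tested, the BH3-only genes Bbc3 (1.61, 1.44 to 1.8) and Bcl2l11 (1.73, 1.48 to 2.02) were higher. Both were higher in marked cells, where 12 genes were tested, and Bcl2l11 was higher in T cell barcodes too. In unmarked cells 10 genes passed the filter and 0 of them were higher. A gene below the filter could not be called there, so these counts do not set the 2 sides apart. The pro-survival Mcl1 had 280.4 and 238.1 CPM (0.849, 0.824 to 0.875). Among P53 and its targets Trp53 had 0.926 (0.882 to 0.972) and the CDK inhibitor Cdkn1a 1.14 (1.12 to 1.17).

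Set against the other 4 libraries, the genes with large ratios followed different courses. Gadd45b had 639.9 CPM at 0 h, between 40.57 and 144.5 from 4 h to 4 d, and 709.9 at 6 d, so the 6 d level was nearest to that of 0 h. Mt2 had 1680 CPM at 0 h, 616.6 at 4 d, its lowest, and 1431 at 6 d. Krt16 was lowest at 4 d (146.2 CPM) and had 1320 at 4 h. Pde4b had 190.7 CPM at 0 h and 127.4 at 6 d, with 57.26 or less between. Cst6, Lap3, Ptch1 and Arc had their highest level at 4 d. Cst6 went from 42.03 CPM at 0 h through 589.1 at 16 h and 2368 at 2 d to 3975 at 4 d. Lap3 had 238.8 at 4 d and at most 126.2 at the other time points, Ptch1 49.43 at 4 d and at most 19.25, and Arc 140.4 at 4 d and at most 73.65. The S phase genes of marked cells summed to 706.4 CPM at 0 h, 716.1 at 4 h, 1706 at 16 h and 1284 at 2 d, against 1398 and 902.3 CPM in the libraries compared, so the 6 d sum lay above those of 0 h and 4 h.

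**Figure D4:**
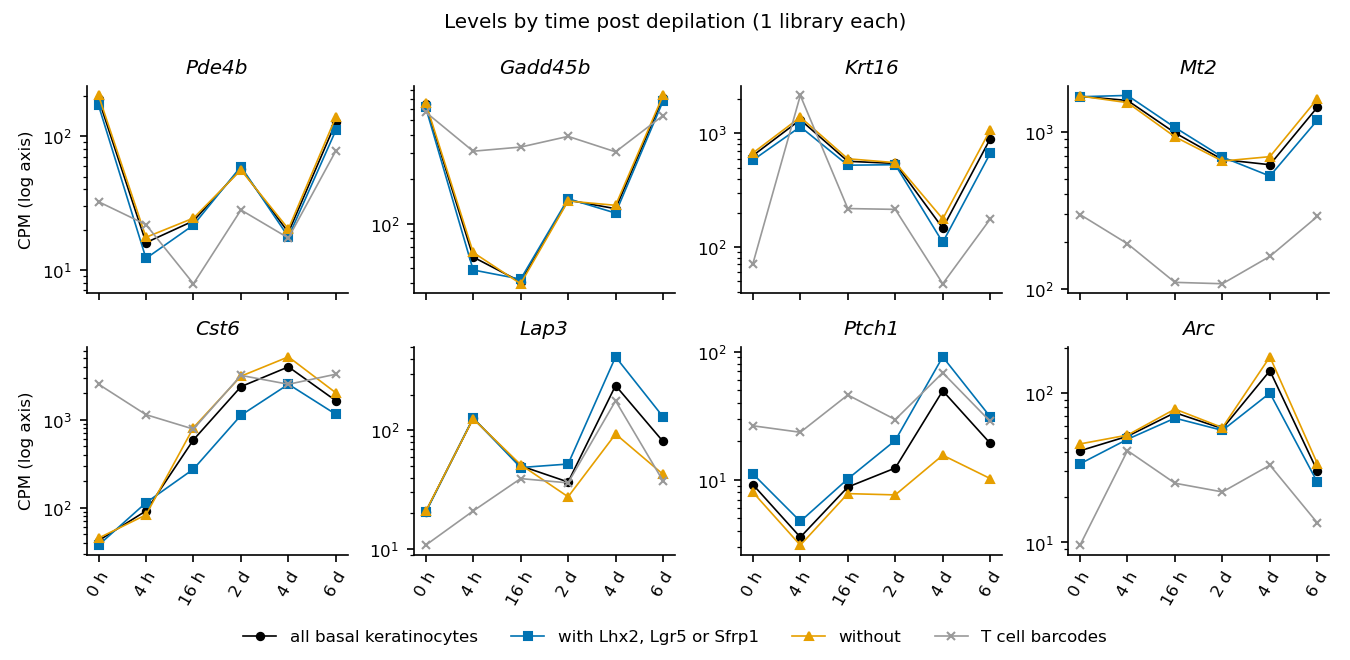
CPM (log axes, which differ between panels) of 8 genes at the 6 time points, 1 library each, in all basal keratinocytes, marked cells, unmarked cells and T cell barcodes. Cst6, Lap3, Ptch1 and Arc had their highest basal level at 4 d, Gadd45b and Mt2 had 709.9 and 1431 CPM at 6 d against 639.9 and 1680 at 0 h, and Pde4b had 190.7 CPM at 0 h and 127.4 at 6 d.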

How the data were processed

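Single-cell suspensions of dorsal skin were profiled with the 10x Genomics 3' kit. The authors deposited raw UMI counts as 1 matrix of genes by barcodes per library, not normalized, and the submitters' processing notes name Cell Ranger 6.1.2 and mm10. Which gene models and which intronic reads were counted is not given in the sources used here, and the study's cell labels were not used. Counts were summed per library over the gated cells and divided by the summed UMIs, keratin, mt- and ribosomal protein genes included. Genes with a mean of at least 10 CPM over both sums were compared, with exact conditional 95% intervals for ratios, a log normal counting interval for the ratio of 2 ratios, and exact binomial intervals for shares. With 1 library per time point no p-value was computed. The sums covered 34959090 and 33190045 UMIs. TMM came from edgeR 4.0.16 and median of ratios factors from DESeq2 1.42.0, for scaling only. Doublets stayed in, and removing the cells of highest Scrublet score (scanpy 1.11.5, 0.8% per 1000 barcodes) was an alternative. The ratio and its interval were checked on simulated data.

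Genes were named by size: the 12 highest and 12 lowest by the interval bound nearest 1 among genes past the fold the same way in marked and unmarked cells, up to 6 each way by the ratio of the marked to the unmarked ratio, and up to 4 members of each of 44 gene lists, with more for signalling lists. Ier5, Myc, Maff, Fos, Jun, Trp53, Gm10076, Rps21, Rps28, Chaf1b, Mcm3, Mcm4, Mcm7, Pcna, Pclaf, Cdt1 and Fen1 fall outside these rules and were named after their values were seen. The cells, lists and markers were chosen with earlier results of these data known. Leaving out genes that moved alike in T cell barcodes and cells with UMIs of other cell types was chosen after seeing the data. Some genes that the rules name are not reported here.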

Additional observations from a re-analysis of the deposited data

How the results depend on the processing

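With 1 library per time point no library can be left out, the spread between mice or preparations is unknown, and intervals cover counting error only. No paired analysis was possible because the labels give no replicate numbers and each time point has 1 library. Depth limits genes below 10 CPM. Of the named genes, 117 were past the fold, and of their 1286 values under the alternatives 1 changed direction, Flg, whose log2 ratio was -0.197 in non-cycling cells. Of 355 values of gene list medians, taken less the median of all genes, 20 moved by 0.1 or more and 0 changed direction. These 355 values cover only part of the lists and settings, and other list medians did change direction. At a mean of at least 2 CPM, the median log2 ratio of hair matrix and inner root sheath genes went from 0.617 (5 tested) to -0.673 (16 tested). That of replication dependent histones went from -0.418 (9 tested) to 0.131 (20 tested). The cause of the changes below was not tested, except that a filter or fold changes the genes counted by construction.

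In all basal keratinocytes the counts of 342 higher and 306 lower genes were 532 and 117 with TMM, 536 and 116 with median of ratios scaling, 566 and 807 at a mean of at least 2 CPM, 132 and 60 at 50 CPM, 1036 and 1424 with no filter, and 107 and 31 at 2-fold. Without genes past 1.5-fold the same way in T cell barcodes they were 160 and 133, and with totals that leave out keratin, mt- and ribosomal protein genes 198 were lower. In marked cells the 343 higher and 458 lower genes became 518 and 196 with median of ratios scaling, 594 and 988 at 2 CPM, 137 and 95 at 50 CPM, 840 and 1293 with no filter, 107 and 55 at 2-fold, and 164 and 181 without the genes that moved alike in T cell barcodes, and 204 were lower with TMM. In unmarked cells the 353 and 361 became 565 and 151 with TMM, 551 and 160 with median of ratios scaling, 614 and 893 at 2 CPM, 133 and 69 at 50 CPM, 963 and 1299 with no filter, 131 and 41 at 2-fold, and 173 and 202 without the genes that moved alike in T cell barcodes. With totals that leave out the 3 groups of genes 235 were lower, and with every cell thinned to 2000 UMIs 610.

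The share of marked cells, 41.28% at 4 d and 43.28% at 6 d, was 24.92% and 26.07% after thinning, 24.61% and 25.75% with at least 2 UMIs, and 32.36% and 33.74% with at least 200 UMIs of Krt5 and Krt14 per 10000, and 38.69% and 41.92% without the cells of highest doublet score. The share of cycling cells, 28.87% and 26.94%, was 53.09% and 51.06% with 1 UMI of the 10 markers, 17.18% and 13.93% with 4, 55.89% and 62.13% without thinning, and 26.2% and 25.82% without the cells of highest doublet score.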
